A study of Mus musculus with 18 samples.

Results

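The brain endothelial genes described here are 10 genes of the cells that line brain blood vessels, *Tek*, *Flt1*, *Kdr*, *Cdh5*, *Pecam1*, *Cldn5*, *Heg1*, *Adgrl4* (*Eltd1* in older annotation), *Slc2a1* and *Slco1a4*. They were taken by name from the platform annotation. The list was drawn up with earlier results of these data known, so its counts are descriptions beside those of the array. All 10 were found among the 19937 genes with a symbol of their own on the array, on 11 probesets, since *Heg1* had 2. Expression in the hypothalamus of 18 male mice had been read on Affymetrix Mouse Gene 1.0 ST arrays, each of which held the RNA of a single animal. The strains were Schlager BPH/2J mice, an inbred model of genetic hypertension, and normotensive BPN/3J mice, and none had received a treatment. Both strains had 6 mice at ‘peak’ BP, in the active period and 26 weeks old, and 3 mice at ‘trough’ BP, in the inactive period. The age of the ‘trough’ mice is given as 18 weeks with each sample and as 19 weeks for the series, so time of day and age cannot be told apart. The labels name the whole hypothalamus, whereas the study's methods describe dissection of its paraventricular and dorsomedial nuclei. One characteristic of the BPN/3J ‘trough’ mice names BPH/2J as their strain, and their titles and blood pressure label were followed.

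Endothelial cells of the brain form the blood-brain barrier. They are joined by tight and adherens junctions, and nutrients cross them through carriers in their membranes. Growth of these vessels depends on vascular endothelial growth factor (VEGF), which acts through its receptors on the endothelium, and angiopoietins keep mature vessels stable through the Tie receptors. *Flt1* and *Kdr* encode the VEGF receptors 1 and 2, and *Tek* encodes the angiopoietin receptor Tie2. *Cdh5* encodes VE-cadherin of the adherens junctions, *Pecam1* encodes the adhesion molecule CD31, and *Cldn5* encodes claudin-5, which seals the tight junctions. *Heg1* encodes a transmembrane receptor that binds the cerebral cavernous malformation protein KRIT1, and *Adgrl4* an adhesion G protein-coupled receptor of endothelial cells. *Slc2a1* encodes the glucose carrier GLUT1, which is also made by astrocytes. *Slco1a4* encodes an organic anion carrier of the barrier.

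Promoters are shown for the 3 genes that were lower together at ‘peak’ BP in BPH/2J mice, *Flt1*, *Kdr* and *Heg1*, and for *Slco1a4*, the gene that differed most often in the other comparisons. RefSeq sequences (mouse build GRCm38.p6) run from 250 bases before the start of the gene to 50 bases after it, and 8 of the 10 genes had an entry. Capitals mark the core of ETS sites (AGGAAG), a factor family with members that act in endothelial cells, and GC boxes (GGGCGG), both searched on either strand (as CTTCCT and CCGCCC). Matches of the same motif may overlap, and those of the different motifs do not. The windows are chr5:147725962-147726261 on the minus strand for *Flt1*, chr5:75978406-75978705 on the minus strand for *Kdr*, chr16:33684216-33684515 on the plus strand for *Heg1*, and chr6:141856171-141856470 on the minus strand for *Slco1a4*.
Flt1: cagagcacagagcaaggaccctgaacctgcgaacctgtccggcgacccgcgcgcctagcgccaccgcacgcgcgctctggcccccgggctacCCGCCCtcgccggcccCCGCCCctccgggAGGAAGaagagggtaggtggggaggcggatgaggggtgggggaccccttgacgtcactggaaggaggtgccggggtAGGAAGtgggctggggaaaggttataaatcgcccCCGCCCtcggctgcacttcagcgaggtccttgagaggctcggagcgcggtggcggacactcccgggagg
Kdr: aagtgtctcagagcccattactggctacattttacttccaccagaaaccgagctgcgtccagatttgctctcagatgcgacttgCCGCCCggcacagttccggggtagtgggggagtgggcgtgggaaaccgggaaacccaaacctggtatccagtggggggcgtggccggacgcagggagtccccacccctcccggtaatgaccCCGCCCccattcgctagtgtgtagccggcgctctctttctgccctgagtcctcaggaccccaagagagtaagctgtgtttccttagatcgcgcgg
Heg1: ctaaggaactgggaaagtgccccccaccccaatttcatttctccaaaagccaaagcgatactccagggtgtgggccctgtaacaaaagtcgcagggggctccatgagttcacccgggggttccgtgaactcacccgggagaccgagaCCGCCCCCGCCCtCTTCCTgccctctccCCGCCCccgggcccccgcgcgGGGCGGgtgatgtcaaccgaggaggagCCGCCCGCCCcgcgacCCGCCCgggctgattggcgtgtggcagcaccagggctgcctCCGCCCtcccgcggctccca
Slco1a4: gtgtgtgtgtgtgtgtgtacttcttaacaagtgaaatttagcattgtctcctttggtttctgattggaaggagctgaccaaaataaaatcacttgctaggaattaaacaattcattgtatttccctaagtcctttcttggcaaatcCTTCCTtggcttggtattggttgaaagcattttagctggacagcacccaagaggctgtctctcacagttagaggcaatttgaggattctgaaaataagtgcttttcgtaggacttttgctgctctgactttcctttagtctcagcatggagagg
*Flt1* held 2 ETS cores and 3 GC boxes, *Kdr* held 0 and 2, *Heg1* held 1 and 8, and *Slco1a4* held 1 and 0. GC content was 70.7% for *Flt1*, 60.7% for *Kdr*, 69% for *Heg1* and 40.7% for *Slco1a4*. Over the 8 genes with an entry, 4 held an ETS core, which was present in 35.4% of 32851 promoters of the same length, and 5 held a GC box, present in 35.7%. The clock-factor E-box CACGTG, which reads the same on either strand, was in 0 of the 8 windows and in 7.15% of all promoters. These matches describe the letters of the windows and say nothing of binding.

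The values are log2 signals that the authors had normalized by robust multi-array analysis (RMA), for 34760 probesets, and the arrays had medians from 6.17 to 6.42. The number of arrays, not a depth of reading, limits the precision. Signals of different probesets do not show which gene has more RNA, and the levels given here only place a probeset on the array. The probesets of hypothalamic markers lay at different places. *Pmch*, the precursor of melanin-concentrating hormone, was at 11.49 to 12.83 over the 18 mice, and *Oxt* at 7.41 to 10.64. *Crh* was at 5.68 to 7.01, *Sim1* at 6.5 to 7.13 and *Nkx2-1* at 6.14 to 6.79, near the array medians. The 2 highest-numbered ‘peak’ mice of either strain (BPH/2J 8 and 9, BPN/3J 10 and 11) stood apart from the other 8. Weights estimated by limma from the residual spread were 0.299 to 0.472 for these 4 arrays and 0.744 to 1.58 for the others at ‘peak’ BP. BPN/3J ‘trough’ mouse 3 had the highest weight, 9.44, against 0.409 and 0.636 in its group and 1.19 to 2.53 in BPH/2J ‘trough’ mice. In the 4 ‘peak’ mice that stood apart *Tek*, *Kdr* and *Pecam1* were lower than in all other ‘peak’ mice of their strain, as were 9.01% of all probesets. *Slc2a1* was higher in them, as were 7.39%. The same mouse 3 had *Gh*, the pituitary gene of growth hormone, at 12.4, against 6.83 and 7.44 in the other mice of its group. Results that change without these mice are given both ways.

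**Figure D1:**
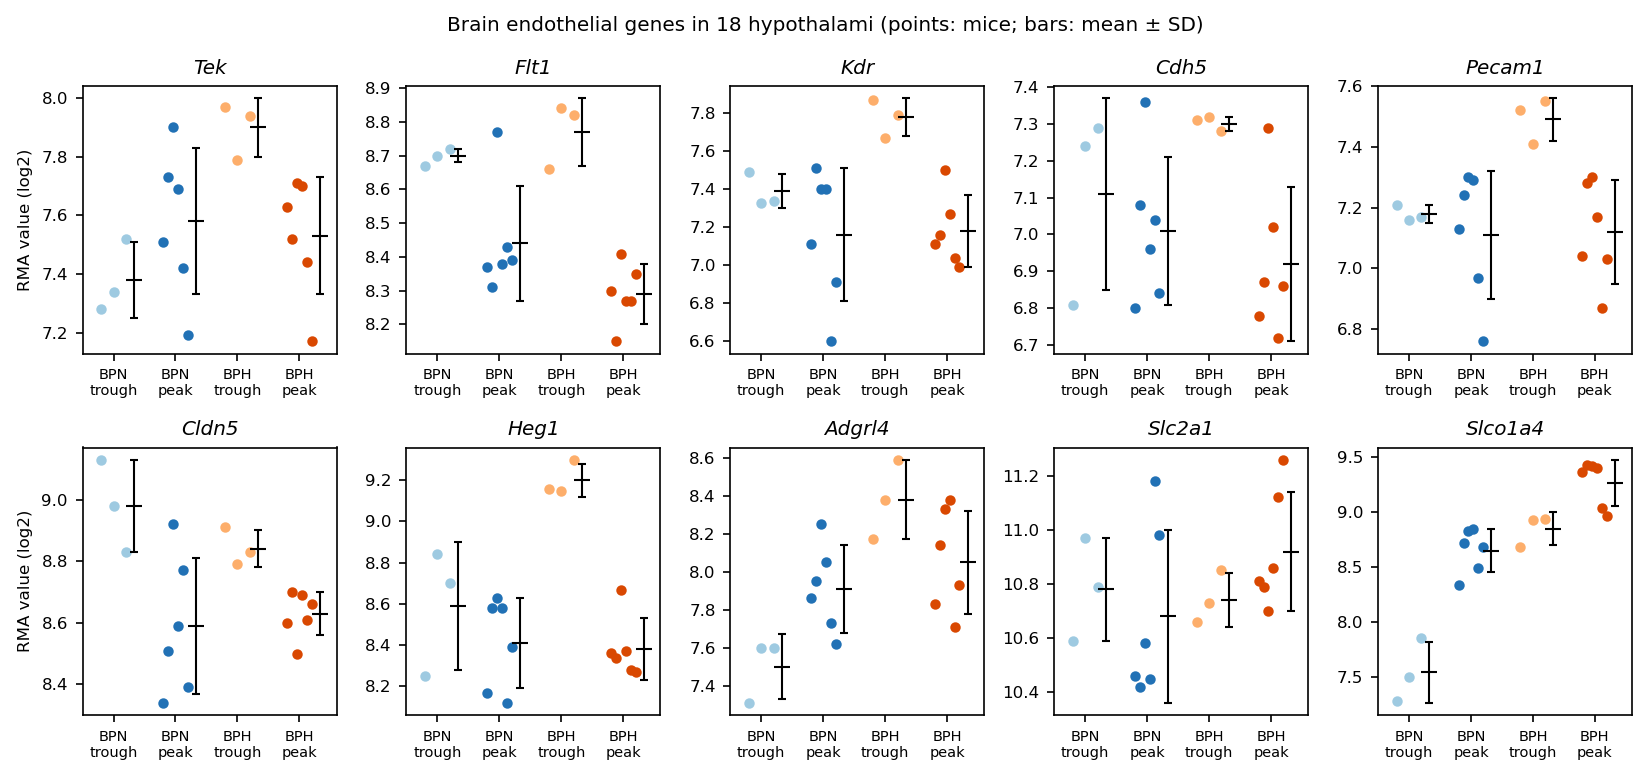
RMA values (log2) of the 10 endothelial genes in each of 18 mice, with 1 panel per gene and its own vertical axis, which does not start at 0. Points are mice, ordered by number within a group (3 at ‘trough’ and 6 at ‘peak’ BP in each strain), and bars give the mean ± SD. *Heg1* was at 9.15 to 9.3 in BPH/2J ‘trough’ mice and at or below 8.84 in all other mice, and *Slco1a4* was lowest in BPN/3J ‘trough’ mice.

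The first comparison asks which of these genes differed with the time of day in hypertensive mice. In BPH/2J mice 3 of the 10 genes were lower at ‘peak’ BP, both VEGF receptors and *Heg1*, and 0 were higher, at an adjusted p under 0.05 in limma with Benjamini-Hochberg adjustment over all probesets. Of all probesets 8.64% passed, 4.39% as lower and 4.25% as higher. Without adjustment 7 of the 10 had a p under 0.05, 6 of them lower, against 23.1% of all probesets. The median difference of the 10 genes was -0.37, against -0.02 over all probesets, and 8 of the 10 values were below 0, against 53.1%. The shares over all probesets, here and below, include probesets with no symbol and with low signal. The mean signals of the 10 genes lay between percentiles 60.8 and 97 of all probesets. With probesets under the 40th percentile left out, 4 of the 10 and 3764 of the probesets kept were called. In a bulk sample, fewer endothelial cells and less RNA per endothelial cell cannot be told apart.

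*Heg1* had the largest difference of the 10 genes. At ‘trough’ BP it stood at 9.16, 9.15 and 9.3 in BPH/2J mice, and at ‘peak’ BP it ran from 8.27 to 8.67 with a median of 8.35. The groups did not overlap, and the difference was -0.82 (SE 0.14, 95% interval -1.11 to -0.52, adjusted p = 0.00208), or 1.76-fold lower. The call was kept in all 27 alternatives. The second *Heg1* probeset gave -0.23 (SE 0.11, adjusted p = 0.234), with groups that overlapped, so the 2 probesets of the gene did not give the same call, and their mean gave -0.53 (adjusted p = 0.00744).

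*Flt1* stood at 8.66, 8.84 and 8.82 at ‘trough’ BP and ran from 8.15 to 8.41 at ‘peak’ BP, with a median of 8.28. Again no ‘peak’ mouse reached the lowest ‘trough’ mouse. The difference was -0.48 (SE 0.09, 95% interval -0.68 to -0.29, adjusted p = 0.00441), 1.4-fold lower, and it too was called in all 27 alternatives. *Kdr* stood at 7.87, 7.67 and 7.79 at ‘trough’ BP and ran from 6.99 to 7.5 at ‘peak’ BP, with a median of 7.14. The groups were separate and the difference was -0.6 (SE 0.16, 95% interval -0.95 to -0.25, adjusted p = 0.0316), 1.52-fold lower. The call of *Kdr* was lost without BPH/2J ‘trough’ mouse 1, 2 or 3 (adjusted p = 0.148, 0.0699 and 0.107) or ‘peak’ mouse 4, 5, 8 or 9 (0.0549, 0.0581, 0.0505 and 0.0505), and with the arrays centred on their medians (0.0827).

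The junction and receptor genes that missed the threshold had values on the same side. *Tek*, the angiopoietin receptor, was at 7.97, 7.79 and 7.94 at ‘trough’ BP and from 7.17 to 7.71 at ‘peak’ BP, a difference of -0.37 (SE 0.14, adjusted p = 0.118). *Pecam1* was at 7.52, 7.41 and 7.55 and from 6.87 to 7.3, a difference of -0.38 (SE 0.12, adjusted p = 0.0573). For both genes, and for *Cldn5* at -0.22 (SE 0.11, adjusted p = 0.259), the groups did not overlap. *Cdh5* lay within 7.28 to 7.32 in the ‘trough’ mice and between 6.72 and 7.29 in the ‘peak’ mice, a difference of -0.38 (SE 0.14, adjusted p = 0.101). Only ‘peak’ mouse 6, the highest, reached into the range of the ‘trough’ mice, and without it *Cdh5* (adjusted p = 0.0393) and *Pecam1* (0.0444) were called too, which made 5 called genes. Calls over all probesets then numbered 2855, against 3005 with all mice. *Pecam1* was also called without BPN/3J ‘peak’ mouse 11 (adjusted p = 0.0248), and *Adgrl4* gave -0.33 (SE 0.16, adjusted p = 0.228) with overlapping groups.

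The carrier genes *Slco1a4* and *Slc2a1* had values above 0, and the interval of *Slc2a1* included 0. *Slco1a4* was at 8.68, 8.93 and 8.94 at ‘trough’ BP and ran from 8.97 to 9.43 at ‘peak’ BP, with a median of 9.39. The difference was 0.42 (SE 0.15, adjusted p = 0.0845), with all ‘peak’ mice above all ‘trough’ mice. ‘Peak’ mice 8 and 9, at 9.04 and 8.97, were below the other 4, which lay between 9.37 and 9.43. Without mouse 9 *Slco1a4* was called as higher (adjusted p = 0.0455). Without the 4 ‘peak’ mice that stood apart it was higher at ‘peak’ BP by 0.56 (adjusted p = 0.016). *Pecam1* was then lower by -0.29 (0.0199), so that 5 genes were called. Of all probesets 6675 were called without these 4 mice, against 3005 with all mice. *Slc2a1* ran from 10.66 to 10.85 at ‘trough’ BP and from 10.7 to 11.26 at ‘peak’ BP, a difference of 0.18 with a 95% interval from -0.17 to 0.53 (adjusted p = 0.573). In all, the groups were separate for 7 of the 10 genes, against 17.7% of all probesets. It was lower in 6 (9.55% of all probesets) and higher in 1 (8.19%).

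**Figure D2:**
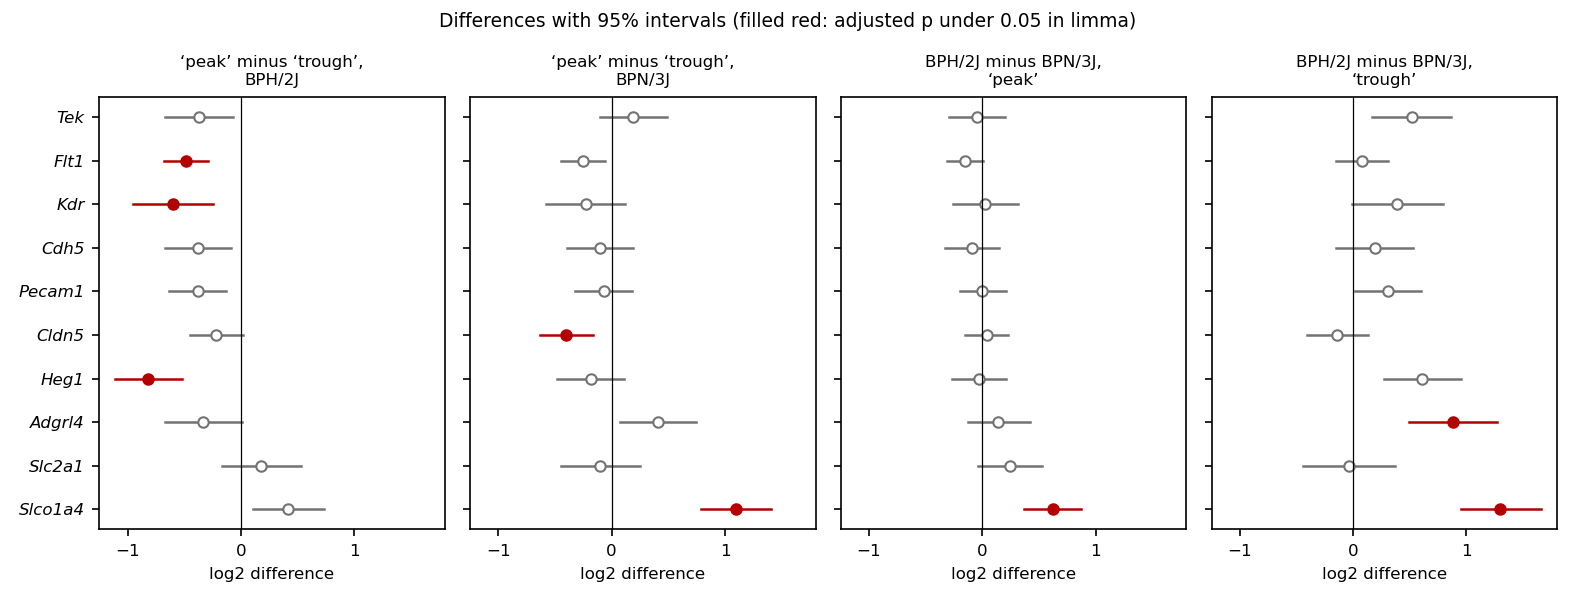
Differences (log2) of the 10 endothelial genes in the 4 comparisons of pairs of groups, with 95% intervals from limma. Filled red points have an adjusted p under 0.05 over all probesets. *Flt1*, *Kdr* and *Heg1* are filled below 0 in BPH/2J mice. *Slco1a4* lies above 0 in all 4 panels and is filled in all but that of BPH/2J mice over time. *Cldn5* is filled below 0 in BPN/3J mice, and *Adgrl4* above 0 between the strains at ‘trough’ BP.

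In normotensive BPN/3J mice the same comparison called 2 of the 10 genes, *Slco1a4* as higher and *Cldn5* as lower at ‘peak’ BP. Of all probesets 25.3% were called, 12.9% as higher and 12.4% as lower, so the share of the 10 genes was no larger than that of the array. Without adjustment 4 of the 10 had a p under 0.05, against 39.9% of all probesets. The median difference of the 10 genes was -0.1, against -0.01, and 7 of the 10 values were below 0, against 51.4%. With probesets under the 40th percentile left out, 3 of the 10 and 7507 of the probesets kept were called.

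*Slco1a4* gave the largest of these values. It stood at 7.28, 7.5 and 7.85 in the ‘trough’ mice and ran from 8.34 to 8.85 in the ‘peak’ mice, with a median of 8.7. The groups were far from overlapping, and the difference was 1.1 (SE 0.15, 95% interval 0.79 to 1.41, adjusted p = 0.000253), 2.15-fold higher and called in all 27 alternatives. *Cldn5*, the tight junction gene, was at 9.13, 8.98 and 8.83 at ‘trough’ BP and from 8.34 to 8.92 at ‘peak’ BP, with a median of 8.55. ‘Peak’ mouse 7, at 8.92, lay above ‘trough’ mouse 4. The difference of -0.4 (SE 0.11, 95% interval -0.63 to -0.16, adjusted p = 0.0174) was lost without ‘trough’ mouse 1 (adjusted p = 0.107) or 3 (0.0591), with median centring (0.0632) and in a fit of the 2 groups alone (0.0846), which left 1 called gene.

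*Adgrl4* was at 7.31, 7.6 and 7.6 at ‘trough’ BP and from 7.62 to 8.25 at ‘peak’ BP. All ‘peak’ mice were above all ‘trough’ mice, with a difference of 0.41 (SE 0.16, adjusted p = 0.0687), and without ‘peak’ mouse 11 the adjusted p was 0.0398. *Adgrl4* and *Slco1a4* were the 2 genes with separate groups, both as higher, against 20.8% of all probesets and 11.6% as higher. *Flt1* gave -0.25 (SE 0.09, adjusted p = 0.0543), with ‘peak’ mouse 7 at 8.77 above the ‘trough’ mice (8.67, 8.7 and 8.72) and the other 5 at 8.31 to 8.43. Without mouse 7 *Flt1* was called as lower by -0.32 (adjusted p = 0.00687). *Kdr*, *Heg1*, *Cdh5*, *Pecam1*, *Slc2a1* and *Tek* had differences from -0.23 to 0.19 and adjusted p from 0.307 to 0.678. Without the 4 ‘peak’ mice that stood apart, 5 genes were called: *Slco1a4*, *Cldn5*, *Tek* as higher by 0.33 (adjusted p = 0.0208), *Adgrl4* by 0.52 (0.0156), and *Slc2a1* as lower by -0.3 (0.0198). Calls over all probesets then numbered 12771, against 8803 with all mice.

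Between the strains at ‘trough’ BP, when the BP of the strains is closest, 2 of the 10 genes differed, and both were higher in BPH/2J mice. They were *Slco1a4* and *Adgrl4*. Of all probesets 0.529% passed, 0.342% as higher. Without adjustment 5 of the 10 had a p under 0.05, all as higher, against 10.4% of all probesets and 5.29% as higher. The median difference was 0.35, against 0 over all probesets, and 2 of the 10 values were below 0, against 49.6%.

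*Slco1a4* was at 8.68, 8.93 and 8.94 in BPH/2J mice and at 7.28, 7.5 and 7.85 in BPN/3J mice. The lowest BPH/2J mouse was well above the highest BPN/3J mouse, with a difference of 1.3 (SE 0.17, 95% interval 0.95 to 1.66, adjusted p = 0.000469), or 2.47-fold. *Adgrl4* was at 8.17, 8.38 and 8.59 in BPH/2J mice and at 7.31, 7.6 and 7.6 in BPN/3J mice, also without overlap. Its difference was 0.88 (SE 0.18, 95% interval 0.49 to 1.27, adjusted p = 0.0393), or 1.84-fold. This call was lost without any 1 of the 6 ‘trough’ mice (adjusted p from 0.0551 to 0.267), without BPH/2J ‘peak’ mouse 5 (0.0534) or BPN/3J ‘peak’ mouse 5, 6 or 8 (0.0546, 0.0541 and 0.0526), with median centring (0.0574) and in a fit of the 2 groups alone (0.112), and 1 gene was then called.

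For 4 further genes the ‘trough’ groups did not overlap and the adjusted p missed the threshold. *Heg1* was at 9.15 to 9.3 in BPH/2J mice and at 8.25, 8.84 and 8.7 in BPN/3J mice, a difference of 0.61 (SE 0.16, adjusted p = 0.151). The second *Heg1* probeset had overlapping groups and gave -0.06 (SE 0.13, adjusted p = 0.886). *Tek* gave 0.52 (SE 0.16, adjusted p = 0.267), with BPH/2J mice at 7.79 to 7.97 and BPN/3J mice at 7.28 to 7.52. *Kdr* gave 0.39 (SE 0.19, adjusted p = 0.492), and *Pecam1* gave 0.31 (SE 0.14, adjusted p = 0.451). With *Slco1a4* and *Adgrl4* these made 6 of 10 genes with separate groups, all as higher in BPH/2J mice on the probeset that represents the gene, against 19.9% of all probesets and 11.1% as higher. *Tek* was called without the 4 ‘peak’ mice that stood apart, which changes the shared estimate of the spread (adjusted p = 0.0371). *Flt1*, *Cdh5*, *Cldn5* and *Slc2a1* had overlapping groups and differences from -0.14 to 0.19.

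At ‘peak’ BP, when the BP of the strains differs most, 1 of the 10 genes differed between the strains, *Slco1a4*, which was again higher in BPH/2J mice. Of all probesets 1.33% passed, 0.616% as higher. *Slco1a4* ran from 8.97 to 9.43 in BPH/2J mice, with a median of 9.39, and from 8.34 to 8.85 in BPN/3J mice, with a median of 8.7. The groups did not overlap, as for 1.57% of all probesets, and the difference was 0.62 (SE 0.12, 95% interval 0.37 to 0.87, adjusted p = 0.00931), or 1.54-fold. It kept its call when any 1 mouse was left out. The other 9 genes had overlapping groups and differences from -0.15 (*Flt1*) to 0.24 (*Slc2a1*), each with an unadjusted p over 0.05, against 9.93% of all probesets with a p below it. The intervals for *Heg1* (-0.27 to 0.21), *Tek* (-0.29 to 0.2), *Pecam1* (-0.2 to 0.21) and *Kdr* (-0.26 to 0.31) bound what differences these arrays leave room for. The median of the 10 genes was 0.01, and 4 of the 10 values were below 0, against 51.8% of all probesets.

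The study set the time of day in the normotensive strain against that in the hypertensive strain. The quantity *d* is the strain difference at ‘peak’ BP minus that at ‘trough’ BP on the log2 scale, and it is the log2 form of the study's adjusted fold difference. The study selected genes by a cutoff on the absolute size of that fold difference, not by the adjusted p used here. For *d*, limma called 0 of the 10 genes and 0 of all 34760 probesets, with 4 of the 10 at an unadjusted p under 0.05, all below 0, against 8.31% of all probesets and 4.56% below 0. Those 4 were *Adgrl4* at -0.74 (SE 0.23, 1.67-fold), *Slco1a4* at -0.68 (SE 0.21, 1.6-fold), *Heg1* at -0.64 (SE 0.2, 1.55-fold) and *Tek* at -0.56 (SE 0.2, 1.48-fold). Each had an adjusted p of 0.589 in limma. In size *Adgrl4*, *Slco1a4* and *Heg1* lay beyond the study's cutoff and *Tek* did not. The second *Heg1* probeset did not show the difference of the first. It gave a *d* of 0.03 (SE 0.16, adjusted p = 0.969). Its differences over time were -0.23 for the hypertensive and -0.26 for the normotensive strain, against -0.82 and -0.18 on the first. With the mean of the probesets 3 of the 10 genes had an unadjusted p under 0.05. *Slco1a4* lay higher at ‘peak’ than at ‘trough’ BP by 0.42 for BPH/2J and by 1.1 for BPN/3J mice. The median *d* of the 10 genes was -0.34, against -0.01, and 8 of 10 values were below 0, against 52.2% of all probesets. With array weights *Tek*, *Adgrl4* and *Slco1a4* were called, in a fit that called 997 of all probesets and gave BPN/3J ‘trough’ mouse 3 a weight of 9.44. The 5 comparisons share their 4 groups, so the values of a gene are not independent between them.

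A further 95 genes of endothelial cells and their pathways were taken from 8 lists (Tie and angiopoietin signalling, VEGF, junctions, barrier carriers, adhesion and Wnt receptors, transcription factors, other markers and venous genes). The lists include ligands of endothelial receptors, such as *Angpt1*, *Vegfb* and *Ndp*, so a call need not come from endothelial cells. In BPH/2J mice 17 of the 95 passed (17.9%, against 8.64% of all probesets), 3 as higher and 14 as lower at ‘peak’ BP, and their median difference was -0.17. The 6 with the smallest p were *Eng*, a co-receptor of the TGF-beta family, at -0.77 (SE 0.12), *Epas1*, a hypoxia-inducible transcription factor, at -0.84 (SE 0.14), *Ptprb*, the endothelial phosphatase that acts on Tie2, at -0.67 (SE 0.12), *Ndp*, the Wnt receptor ligand norrin, at 0.75 (SE 0.14), *Lrp5*, the co-receptor of norrin, at -0.52 (SE 0.1), and *Itm2a* at 0.51 (SE 0.11), with adjusted p from 0.00151 to 0.00874. By list, 4 of 14 adhesion and Wnt receptor genes, 3 of 17 other markers, 2 of 4 Tie genes and 2 of 8 VEGF genes fell. Of the 15 barrier carriers 1 rose and 1 fell, with 9 values below 0 and a median of -0.11. The 11 junction genes had the same median, and 0 of them passed. The count of 17 became 6, 8 and 8 without BPH/2J ‘trough’ mouse 1, 2 or 3. Calls over all probesets were then 1035, 1545 and 1401, against 3005 in the main fit. It was 10 and 11 of the 95 without ‘peak’ mouse 5 or 7 (1953 and 2043 of all probesets) and 9 with median centring (2182). Without the 4 ‘peak’ mice that stood apart 33 of the 95 passed (14 higher, 19 lower), with 6675 of all probesets called. In a fit of the 21640 probesets with 1 symbol, 2823 were called. With probesets under the 40th percentile left out, 3764 of those kept were called. The 95 genes were not counted in these fits, and their share was not tested against probesets of like signal.

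In BPN/3J mice 30 of the 95 passed (31.6%, against 25.3% of all probesets), 14 as higher and 16 as lower, with a median of -0.13. The 6 with the smallest p were the iron exporter *Slc40a1* at 0.78 (SE 0.11), the Notch target *Hey1* at 0.5 (SE 0.08), *Itm2a* at 0.65 (SE 0.11), the efflux pump *Abcg2* at 0.85 (SE 0.15), *Ndp* at 0.71 (SE 0.14) and *Eng* at -0.6 (SE 0.12), with adjusted p from 0.000324 to 0.00315. Among the barrier carriers 4 of 15 were higher and 2 lower. Median centring turned the split to 17 higher and 9 lower, and over all probesets 5678 of the 8112 called were then higher. The count was 18 and 17 without BPN/3J ‘trough’ mouse 1 or 3. Calls over all probesets were then 3826 and 4221, against 8803 in the main fit. Without the 4 ‘peak’ mice that stood apart 47 of the 95 passed, with 12771 of all probesets called. In the fit of the 21640 probesets with 1 symbol, 7276 were called. With probesets under the 40th percentile left out, 7507 of those kept were called.

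Between the strains 2 of the 95 passed at either time. At ‘peak’ BP these were *Fzd6*, a Wnt receptor, at 0.56 (SE 0.12, adjusted p = 0.0275), and *F11r*, the junctional adhesion molecule A, at 0.54 (SE 0.13, adjusted p = 0.0499), both higher in BPH/2J mice (2.11% of the 95, against 1.33% of all probesets). At ‘trough’ BP they were *Fzd6* at 0.97 (SE 0.18, adjusted p = 0.0135) and *Adgrf5*, an adhesion G protein-coupled receptor like *Adgrl4*, at 0.51 (SE 0.11, adjusted p = 0.0416), again 2.11% of the 95, against 0.529%. The count of 2 at ‘peak’ BP became 0 without BPH/2J ‘peak’ mouse 4, 5 or 8 or BPN/3J ‘peak’ mouse 5 or 11, and that at ‘trough’ BP became 0 without BPH/2J ‘trough’ mouse 1 or 2 or BPN/3J ‘trough’ mouse 1. Both counts were 1 with median centring, and without the 4 ‘peak’ mice that stood apart they were 1, neither *Fzd6* nor *F11r*, and 3. Over all probesets, calls in the omissions that gave 0 ran from 361 to 441 at ‘peak’ BP, against 462. At ‘trough’ BP they ran from 85 to 106, against 184. With median centring 392 and 156 of all probesets were called, and without the 4 ‘peak’ mice 435 and 349. For *d*, limma called 0 of the 95, with 9 at an unadjusted p under 0.05, where 8.31% of all probesets had one.

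Marker lists of pericytes, vascular smooth muscle, and meningeal and perivascular fibroblasts had medians below 0 in BPH/2J mice. In each list 2 or 3 of 10 were called lower, against 4.39% of all probesets. Pericyte markers had a median difference of -0.3 between ‘peak’ and ‘trough’ BP, with 3 of 10 called lower and 0 higher, and their mean log2 level ran from 7.1 to 7.26 at ‘peak’ and from 7.39 to 7.52 at ‘trough’ BP. Vascular smooth muscle markers had a median of -0.34 with 2 of 10 lower, and levels of 6.5 to 7.09 against 7.03 to 7.22. Meningeal and perivascular fibroblast markers had -0.53 with 2 of 10 lower, and levels of 6.07 to 7.05 against 6.71 to 6.95. Medians were -0.16 for microglia, -0.2 for oligodendrocytes, -0.09 for neurons and 0 for astrocytes. In BPN/3J mice the fibroblast median was -0.42 (3 of 10 lower), that of smooth muscle -0.22 (2 lower) and that of pericytes -0.12 (1 higher, 3 lower), where 12.4% of all probesets were called lower.

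At ‘trough’ BP the median between the strains was 0.35 for oligodendrocyte markers, with levels of 10.35 to 10.42 in BPH/2J and 9.88 to 10.29 in BPN/3J mice, and 0.34 for smooth muscle markers. It was 0.1 for pericytes, 0.04 for astrocytes and 0.02 for neurons. No gene of these lists was called at ‘trough’ BP. Anterior pituitary markers were lower in BPN/3J mice at ‘peak’ than at ‘trough’ BP by a median of -1.12, with 3 of 5 called. ‘Trough’ mouse 3 had the highest *Gh* and *Prl*, at 12.4 and 8.56, whereas *Lhb* was at 6.95, 6.98 and 6.83 in mice 1, 3 and 4. Without that mouse *Slco1a4* stayed called in both comparisons that use its group. The part of other cells in the differences of the 10 endothelial genes was not tested.

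**Figure D3:**
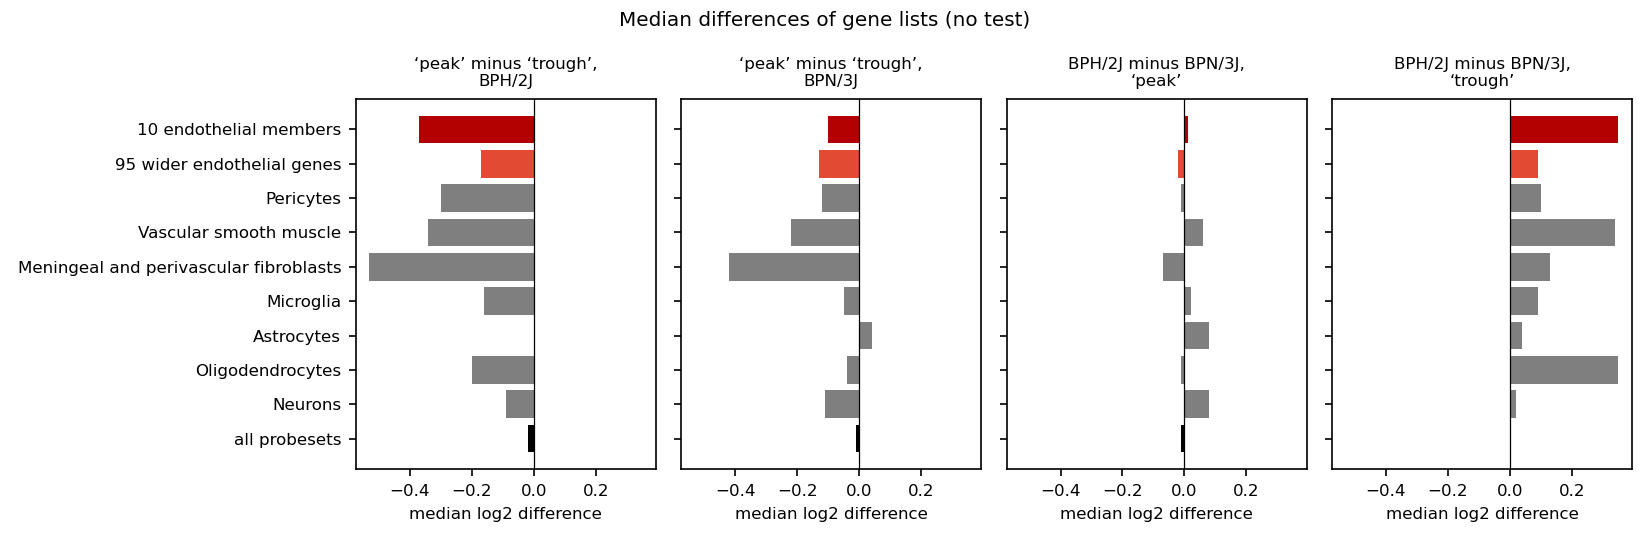
Median log2 difference over the 10 endothelial genes, 95 wider genes of endothelial cells and their pathways, marker lists of other cell types and all probesets, in 4 comparisons, with no test. In BPH/2J mice the endothelial, pericyte and smooth muscle lists lie between -0.17 and -0.37, and so do oligodendrocytes. Meningeal and perivascular fibroblasts lie at -0.53, microglia at -0.16 and neurons also below 0, with astrocytes and all probesets at 0 and -0.02. Between the strains at ‘peak’ BP all bars lie between -0.07 and 0.08.

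How the 10 genes varied between mice of 1 group was described by the deviation of a mouse from the mean of its group, over the 45 pairs of genes. Over all 18 mice 36 pairs had a positive Pearson r and 9 a negative one, with a median of 0.4. By a two-sided permutation test that shuffled mice within groups, 17 pairs had an adjusted p under 0.05 over the 45 pairs, 14 positive and 3 negative, and 14 of the 17 also passed by Spearman's rho. After quantile normalization 5 of the 17 passed, *Tek* with *Pecam1*, *Kdr* with *Pecam1* and with *Slc2a1*, and *Adgrl4* with *Cdh5* and with *Pecam1*. Without *Slc2a1*, 34 of 36 pairs were positive, with a median r of 0.48. For comparison, the median r of a member with all probesets lay between -0.08 and 0.08, and 4.13% to 16% of probesets had an r over 0.5 with it.

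Among the positive pairs *Kdr* and *Pecam1* had r = 0.78 (permutation p = 0.00407, adjusted p = 0.0305, rho = 0.92), and r was 0.85 without the 2 mice farthest from the median of *Kdr*. *Cdh5* and *Adgrl4* had r = 0.75 (permutation p = 0.00087, adjusted p = 0.0189, rho = 0.72), and r was 0.64 without the 2 farthest mice. *Cdh5* and *Heg1* had r = 0.74 (permutation p = 0.00567, adjusted p = 0.033, rho = 0.73), with 0.62 without the 2 farthest, and an adjusted p of 0.0515 after quantile normalization. Thus a mouse with a high value of VE-cadherin for its group also tended to have high values of *Heg1* and *Adgrl4*. *Tek* passed with *Kdr*, *Cdh5*, *Pecam1*, *Adgrl4* and *Slco1a4*, with r from 0.61 to 0.76. In the 4 ‘peak’ mice that stood apart *Tek*, *Kdr* and *Pecam1* were lower than in the other ‘peak’ mice of their strain. Pairs of these genes over 18 mice therefore hold 2 clusters, which leaving out 2 mice does not remove. *Cldn5* passed with no gene (r from -0.09 to 0.41). *Flt1* passed with *Cdh5* alone (r = 0.58, permutation p = 0.0188, adjusted p = 0.0497), and this r was 0.11 without the 2 farthest mice, so that over 18 mice the relation rested on them. Over the 14 mice without the 4 that stood apart the pair had r = 0.62 (permutation p = 0.0368, adjusted p = 0.237), and 0.56 without the 2 farthest.

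This count was lost without the 4 ‘peak’ mice that stood apart. Leaving them out also lowers the number of mice, and the part of either in the loss was not tested. Over the other 14 mice, with the group means taken again, 0 pairs passed after adjustment, while 43 of the 45 r were positive and the median r was again 0.4. *Cdh5* and *Heg1* had r = 0.84 (permutation p = 0.00533, adjusted p = 0.12, rho = 0.85), *Cdh5* and *Adgrl4* had r = 0.74 (permutation p = 0.00525, adjusted p = 0.12), and *Kdr* and *Pecam1* had r = 0.71 (permutation p = 0.0253, adjusted p = 0.19). *Tek* and *Pecam1*, at 0.76 over 18 mice, had r = 0.38. Over these 14 mice *Tek* had r = 0.52 with *Kdr* and with *Adgrl4* (adjusted permutation p = 0.323 and 0.273). With *Cdh5* and *Slco1a4* it had 0.76 and 0.62 (0.174 and 0.308). Within the 12 ‘peak’ mice 12 pairs passed, 11 of them shared with the 17. Within the 6 ‘trough’ mice 0 pairs passed by the exact permutation test, for which 36 rearrangements allow no p below 0.0278. After adjustment over 45 pairs a pass was almost out of reach there, so this 0 decides nothing. The r values over these 6 mice had both signs, from -0.98 (*Cldn5* with *Slco1a4*) to 0.94 (*Heg1* with *Slc2a1*). *Cdh5* had 0.90 with *Heg1* and 0.58 with *Adgrl4*, but -0.70 with *Kdr* and -0.84 with *Cldn5*.

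**Figure D4:**
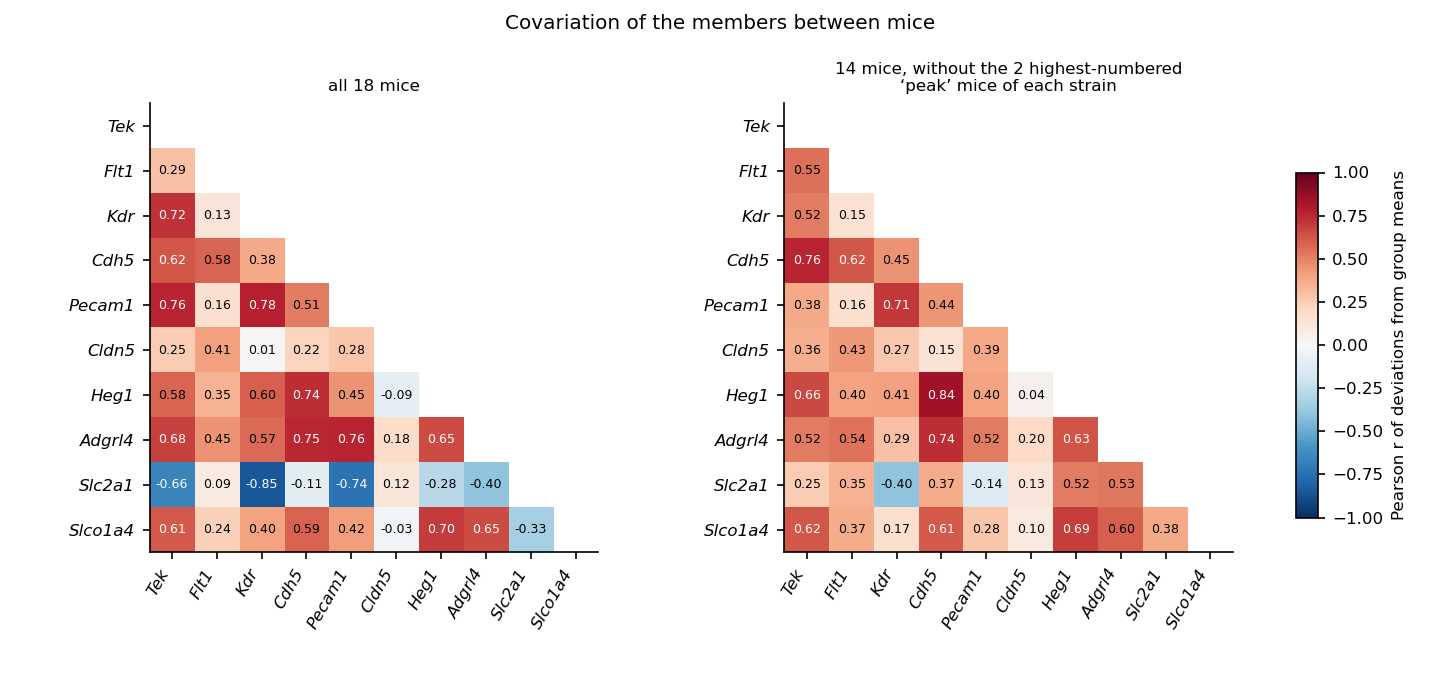
Pearson r between the deviations of 10 endothelial genes from their group means, over 18 mice (left) and over the 14 mice without BPH/2J ‘peak’ mice 8 and 9 and BPN/3J ‘peak’ mice 10 and 11 (right). Most pairs are positive in both, *Cldn5* has small values in the left panel, and the row of *Slc2a1* runs from -0.85 to 0.12 on the left and from -0.4 to 0.53 on the right.

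The glucose carrier gene *Slc2a1* went against the other genes in the full set. Its values in the 4 mice were separate from those of the other ‘peak’ mice, at 11.12 and 11.26 against 10.7 to 10.86 in BPH/2J and at 11.18 and 10.98 against 10.42 to 10.58 in BPN/3J mice. A relation across 18 mice that includes it therefore rests on 2 clusters, and the values over the other 14 mice come first. There *Kdr* and *Slc2a1* had r = -0.4 (permutation p = 0.122, adjusted p = 0.323, rho = -0.53), *Pecam1* and *Slc2a1* had -0.14 (permutation p = 0.556, adjusted p = 0.659), and *Tek* and *Slc2a1* had 0.25 (permutation p = 0.499, adjusted p = 0.622). With the 4 mice the same pairs had r = -0.85, -0.74 and -0.66, and they were the 3 negative pairs that passed. The median r of *Slc2a1* with the other 9 genes was -0.33 over 18 and 0.35 over 14 mice, and the sign changed in 7 of all 45 pairs. In BPN/3J ‘peak’ mouse 10 *Slc2a1* was the highest of its group at 11.18 and *Kdr* the lowest at 6.6. In BPH/2J ‘peak’ mouse 9 they were at 11.26, the highest, and 6.99, the lowest.

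**Figure D5:**
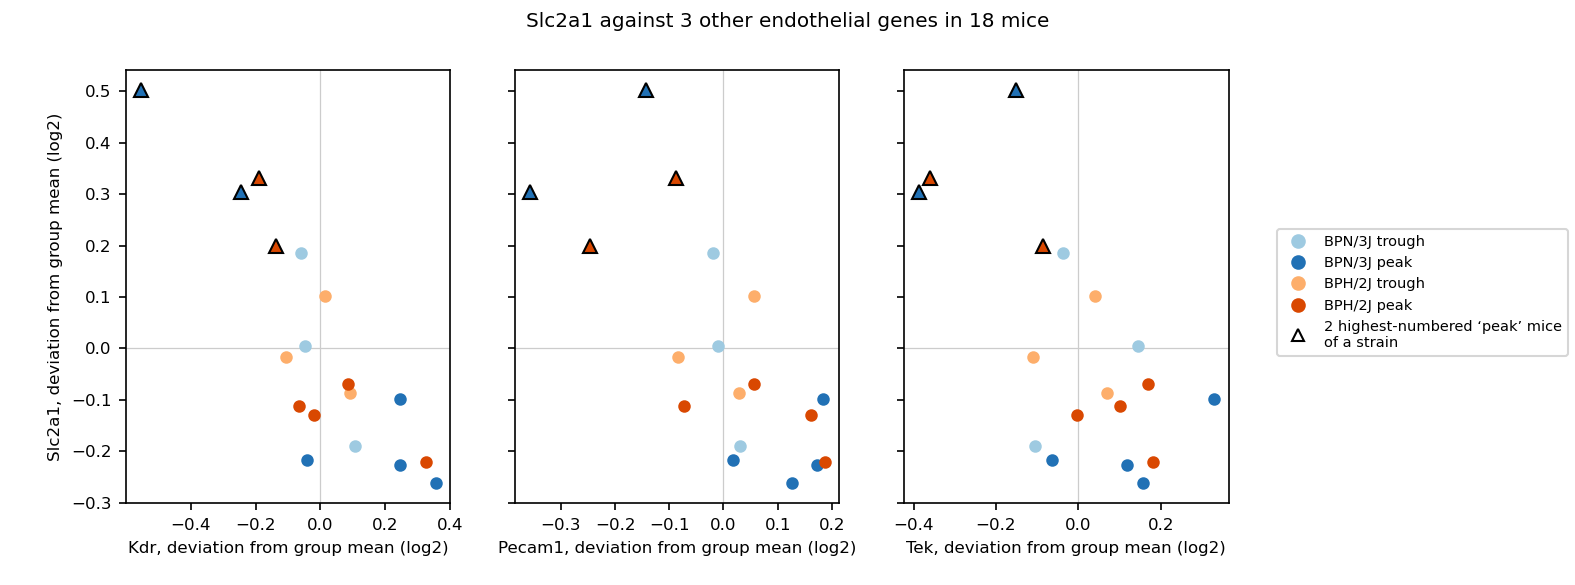
Deviation of *Slc2a1* from its group mean (log2) against that of *Kdr*, *Pecam1* and *Tek* in 18 mice, coloured by group. Triangles mark BPH/2J ‘peak’ mice 8 and 9 and BPN/3J ‘peak’ mice 10 and 11, which hold the 4 highest *Slc2a1* deviations and lie left of 0 in all panels.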

How the data were processed

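Expression of 10 endothelial genes was measured in 18 mouse hypothalami, and samples were grouped by their titles and labels. RMA was applied by the authors, and their deposited log2 values for 34760 probesets, with 0 missing, were taken as they stood. The version of RMA is not given in the sources used here. Of the probesets, 21640 carry 1 gene symbol in the platform annotation, 1321 carry several and 11799 none, and a gene is represented by its brightest probeset. Differences were tested by limma 3.58.1 (R 4.3.3) in 1 model of 4 groups (14 residual and 2.94 prior degrees of freedom), two-sided, with Benjamini-Hochberg adjustment over all probesets and a threshold of 0.05. Each array is a separate mouse.

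Covariation was tested in Python with 100000 permutations within groups, over all 45 pairs (figures: matplotlib 3.10.9). Procedures were checked on simulated data. All 10 genes are named in every comparison, and of 95 wider genes the 6 with the smallest p among those that passed. The members, lists and tests were chosen with earlier results of these data known.

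Alternatives were quantile normalization, median centring, a filter at the 40th percentile, probesets with 1 symbol only, fits of 2 groups, array weights, a robust prior with an intensity trend, a block for the mouse number, the mean of a gene's probesets, leaving out each mouse, and leaving out 4 ‘peak’ mice. Those for the 95 wider genes were added after the data were seen. Columns of other samples numbered 0.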

Additional observations from a re-analysis of the deposited data

Results flagged for a closer look

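In each group of 6 mice the distance of the highest or lowest value to its nearest neighbour was set against the range of the group, and 2 of 20 such groups stood out, where chance gives about 1 in 20. *Flt1* was at 8.77 in BPN/3J ‘peak’ mouse 7, a gap of 0.75 of the range, while the other 5 lay between 8.31 and 8.43. *Heg1* was at 8.67 in BPH/2J ‘peak’ mouse 6, a gap of 0.74 of the range, while the other 5 lay between 8.27 and 8.37. Without these mice the differences of *Flt1* in BPN/3J and of *Heg1* in BPH/2J mice kept their direction.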

How the results depend on the processing

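Of 1370 values of single genes under the alternatives, 1279 kept direction and side of the threshold, 27 lost a call, 35 gained one and 29 changed sign, none of them called. In BPH/2J mice over time, 3 called genes became 7 with array weights and 5 without the 4 ‘peak’ mice (2 to 5 with 1 mouse left out). In BPN/3J mice 2 became 1 with median centring or the 2 groups alone, 4 with probesets of 1 symbol, 7 with array weights and 5 without the 4 mice (1 to 3). Of the 21640 probesets with 1 symbol, 7276 were called in that fit for BPN/3J mice. At ‘trough’ BP 2 became 1 with median centring or the 2 groups alone and 6 with array weights (1 to 2), at ‘peak’ BP it was 1 in each omission (1 to 1), and for *d* 0 became 3 with array weights (0 to 0). Medians of the 10 genes with 1 mouse left out ran from -0.41 to -0.33, -0.19 to -0.05, -0.05 to 0.06, 0.32 to 0.4 and, for *d*, -0.41 to -0.29. Mouse numbers do not pair the mice (6 pairs, r from -0.3 to 0.19, 1 best with its own number). With the replicate block, on 12 arrays, 0 members were called at either time, 139 probesets were called at ‘peak’ and 29 at ‘trough’ BP, and the median *d* was -0.48. With the block *Slco1a4* gave 0.64 at ‘peak’ (adjusted p = 0.211) and 1.42 at ‘trough’ BP (0.116), and *Adgrl4* 0.93 (0.259). The block cannot be fitted for time within a strain.

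Sign changes were as follows. At ‘trough’ BP *Flt1* was at -0.02 with quantile normalization and *Slc2a1* at 0.03 with median centring (-0.13 to 0.05 with 1 mouse left out). In BPN/3J mice *Pecam1* was at 0.03 with median centring, 0.02 with array weights and 0.05 without the 4 mice (-0.11 to 0). At ‘peak’ BP *Heg1* was at 0.01 with median centring (-0.09 to 0.02). There *Kdr* was at -0.05 with array weights, -0.12 with the block and -0.1 without the 4 mice (-0.09 to 0.09), and *Pecam1* at -0.03, -0.08 and -0.04 (-0.07 to 0.05). *Tek* ran from -0.13 to 0.02 and *Cldn5* from -0.01 to 0.11. Pairs that covaried numbered 17 and became 5 with quantile normalization, 0 without the 4 mice and 22 with group means kept. Within the 6 ‘trough’ mice the number was 0, where the test leaves almost no room for a pass.

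Called probesets over time numbered 3005 for BPH/2J and 8803 for BPN/3J mice, 9257 and 19431 with array weights, and 2182 and 8112 with median centring. Those higher were 1478 and 4493, and 1357 and 5678 with centring. Without the 4 mice 6675 and 12771 were called, and 349 rather than 184 at ‘trough’ BP, where array weights called 8091 and the 2 groups alone 67. In BPN/3J mice the 2 groups alone called 4763. With 1 mouse left out the counts ran from 1035 (BPH/2J ‘trough’ mouse 1) to 3533 and from 3826 (BPN/3J ‘trough’ mouse 1) to 9540. Array weights gave BPN/3J ‘trough’ mouse 3 a weight of 9.44, against 0.409 and 0.636 in its group. The causes were not tested. Groups of 3 mice limit the ‘trough’ comparisons.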

Other observations

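Of all other genes with 1 symbol, those whose deviations from group means were most like the mean of the 10 endothelial genes were *A2m* (r = 0.93 over 18 and 0.92 over 14 mice), *Fads2b* (0.91 and 0.88), *Tgfbr1* (0.9 and 0.85), *Thbd* (0.9 and 0.9), *Vim* (0.9 and 0.85), *Gask1b* (0.89 and 0.91), *Sema3d* (0.89 and 0.84), *Dcn* (0.88 and 0.85), *Efcab14* (0.88 and 0.83) and *Crybg3* (0.88 and 0.83). They were picked as the highest of all genes and are a description. *Thbd* encodes the endothelial receptor thrombomodulin, *Vim* the filament protein vimentin, and *Dcn* the fibroblast proteoglycan decorin.

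Per mouse, the mean deviation of marker lists went with that of the 10 genes to different degrees. For barrier carriers other than the 10 genes r was 0.85 over 18 and 0.91 over 14 mice. For meningeal and perivascular fibroblasts it was 0.78 and 0.75. In and around the vessel wall it was 0.69 and 0.65 for smooth muscle, 0.65 and 0.72 for perivascular macrophages, and 0.58 and 0.57 for pericytes. Other cell lists had similar values, with 0.76 and 0.85 for astrocytes, 0.66 and 0.7 for oligodendrocytes and 0.65 and 0.69 for microglia. Choroid plexus had 0.67 and 0.53, and ependyma and tanycytes 0.64 and 0.51. Among the endothelial lists the Tie genes had 0.57 and 0.26 and the VEGF genes 0.67 and 0.44, against 0.65 to 0.87 and 0.68 to 0.91 for the other lists except the venous one. For venous, fenestrated and activated endothelium it was 0.18 and 0.25, for neurons 0.01 and -0.29, and for hypothalamic peptide and marker genes -0.16 and -0.75. All lists share the arrays and their normalization, and these values carry no test.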
